A study of Mus musculus with 18 samples.

Results

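Genes for lysosomal enzymes and lysosomal membrane proteins were followed through 18 RNA-seq libraries of mouse LSK cells, bone marrow cells without lineage markers but with cKit and Sca1 on their surface, the fraction that holds the hematopoietic stem cells and multipotent progenitors. The set was a list of 39 gene names, matched by name to the gene column of the 2 deposited tables. Of these names 38 were found, among 25601 gene names in each table, and all 38 passed the expression filter in both tables. The 39th, TFEB, is not a row name, and its older symbol TCFEB is described separately. The list was not chosen on measured values, but it was proposed with earlier results of the same data known.

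All mice were C57Bl/6, of an age the labels do not give. Irradiated mice had received a sublethal dose of 2.5 Gy from a Cs-137 source and had then had at least 9 weeks to recover, and control mice had not been irradiated. The 6 groups had 3 libraries each. Freshly sorted control and freshly sorted irradiated libraries were each made from LSK cells pooled from 3 mice. The 4 culture groups started from 200 LSK cells of 1 mouse per library, kept for 6 days with the cytokines mSCF, hFlt3L, hIL-6 and hIL-11 and sorted once more as LSK cells. They were control and irradiated cells, each grown without and with DL1. DL1 is not spelled out in the labels. It is the usual abbreviation of Delta-like 1, a ligand of Notch receptors, and how it was offered to the cells is not stated. The cultured libraries therefore describe cells that still carried the LSK surface markers after growth, not whole cultures, and the freshly sorted ones are averages over pooled mice. For the control samples, the source label speaks of cells of irradiated mice, but the sample title and the condition label both give control, and these 2 labels were followed.

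Lysosomes are acidic organelles in which proteins, glycans, glycosaminoglycans and lipids brought in by endocytosis, phagocytosis or autophagy are broken down. Their soluble hydrolases travel from the Golgi along the mannose 6-phosphate route, a proton pump keeps the lumen acidic, and heavily glycosylated membrane proteins line the limiting membrane and carry products out. TFEB and its relatives of the MiT/TFE family bind E-box motifs in the promoters of many such genes, and macrophages are among the blood cells richest in lysosomes. In stem cells, lysosomes have been studied for their part in quiescence and in the turnover of damaged organelles.

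As a description of the set, apart from its measured levels, the promoters were searched for the DNA letters that the MiT/TFE factors are known to bind. RefSeq promoters of the mouse build GRCm38.p6, from 250 bases before to 50 bases after each gene start, were matched for 34 of the 38 genes, and ASAH1, CTSB, CTSH and NPC1 had no entry. The 6-base E-box CACGTG, searched on both strands, was present in 12 of the 34 (35.3%), against 8.09% of all 27025 genes in the promoter table. The longer core TCACGTGA, which contains the E-box, was present in 4 (11.8%), against 1.12% of all genes. The genes with an E-box were ARSA, CTSA, CTSD, CTSL, GAA, GLA, GLB1, LAMP1, LGMN, MCOLN1, NAGLU and SGSH. Because such motifs are known in many lysosomal promoters, a share above that of all genes could be foreseen for this list. A match is a description of the letters and not evidence of binding, and its relation to the measured changes was not tested. Stretches with E-boxes upstream of the start are shown for 7 of these genes. They are the 4 with the longer core, LAMP1 for its cluster of 4 motifs, and LGMN and NAGLU as examples of the rest, picked without a rule. Capitals mark the E-box, and each stretch is written 5′ to 3′ on the strand of the gene.
LAMP1: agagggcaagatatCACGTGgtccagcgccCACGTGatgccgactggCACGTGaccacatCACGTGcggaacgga
CTSD: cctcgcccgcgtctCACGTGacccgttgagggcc
CTSA: aatgagcaaactgtCACGTGatgcag
GLA: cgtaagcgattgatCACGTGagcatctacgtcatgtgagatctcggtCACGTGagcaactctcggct
MCOLN1: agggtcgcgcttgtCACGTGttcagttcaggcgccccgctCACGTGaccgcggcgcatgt
LGMN: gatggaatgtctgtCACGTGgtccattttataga
NAGLU: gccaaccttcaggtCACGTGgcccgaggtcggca
On GRCm38.p6 these lie at chr8:13159086-13159160 (plus strand) for LAMP1, chr7:142387906-142387939 (minus) for CTSD, chr2:164833747-164833772 (plus) for CTSA and chrX:134601180-134601246 (minus) for GLA. MCOLN1 lies at chr8:3500434-3500493 (plus), LGMN at chr12:102439122-102439155 (minus) and NAGLU at chr11:101070007-101070040 (plus). All lie upstream of the annotated start. The stretches shown hold several copies for LAMP1, GLA and MCOLN1, and 1 for CTSA, CTSD, LGMN and NAGLU. These counts depend on where the stretches were cut. Outside them CTSA has another E-box at 6 and CTSD another at -245, counted in bases from the gene start.

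Levels are in FPKM, fragments scaled to transcript length and to the size of the library, which allows genes to be compared per length. Summed FPKM lay between 541256 and 572675 in cultured and between 690463 and 731710 in freshly sorted libraries, with 16863 to 18200 names above 0. Depth relative to the first control of each table, read from the lowest values, was 0.756 to 1.087 in culture apart from irradiated replicate 2 with DL1 at 0.488, and 0.645 to 1.0 in freshly sorted libraries. Changes are log2 fold changes ± standard error, taken after adding 1 to each FPKM, which understates the change of low genes. Adjusted p are from limma, with Benjamini-Hochberg adjustment over all genes tested, and "rose" and "fell" are kept for an adjusted p under 0.05. The p-values measure the spread between these libraries, which came from different mice or pools within a group. Because these are bulk samples, fewer cells of a type and less RNA per cell cannot be told apart.

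In freshly sorted control LSK cells the lysosomal genes were expressed at moderate levels, with a median of 20.3 FPKM. Of the 38 genes 26 lay above 11.1, the median over all genes with a mean of at least 1 FPKM in this group. CD63, a tetraspanin of late endosomes and lysosomes, had the highest mean at 111 ± 17.5 FPKM (SD, n = 3). GM2A, the activator protein that presents GM2 ganglioside to hexosaminidase, followed at 96.2 ± 4.06, and CTSD, the main aspartyl protease of lysosomes, at 95.3 ± 2.93. Between CD63 and its nearest neighbours in this order the means differed by less than the SD of CD63. LGMN, the asparaginyl endopeptidase legumain, had the lowest at 2.02 ± 0.408.

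In control cultures the order of levels was different, and the median was 43.5 FPKM. Here 29 of 38 lay above 14.2, the median over all genes with a mean of at least 1 FPKM in control cultures. Above 100 FPKM were 9 genes, against 1 in freshly sorted cells. PSAP, the precursor of the 4 saposins that help degrade sphingolipids, led with 753 ± 129 FPKM, followed by the cysteine protease CTSS at 320.2 ± 71.5 and by CTSD at 260.4 ± 28.8. The heparan sulfate sulfamidase SGSH was the lowest at 3.67 ± 0.0931. The top 3 genes held 39.6% of the summed level of the set in culture and 26% in freshly sorted cells. The 2 tables were normalized separately, so the ratio between them is a description without a test: it was above 1 for 29 genes and below 1 for 9, with a median of 2.02. The highest ratios were those of PSAP (8.47) and of 4 of the proteases, LGMN (22.2), CTSZ (10.1), CTSS (7.9) and CTSC (7.59). IDS, NPC1, SGSH, IDUA, CD63, ARSB, TPP1, FUCA1 and PPT1 had ratios from 0.522 to 0.98.

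**Figure D1:**
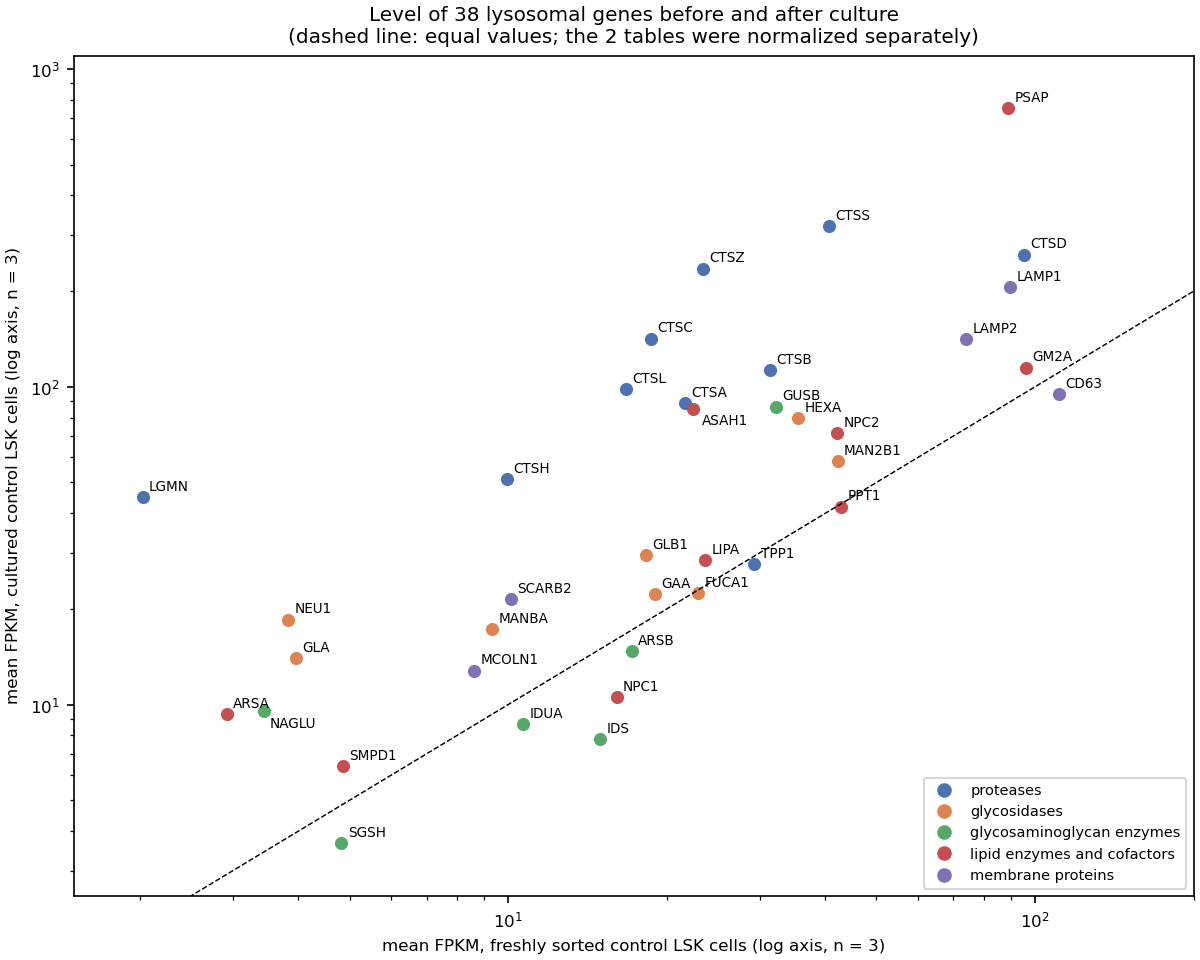
Mean FPKM of the 38 lysosomal genes in freshly sorted control cells (horizontal, log axis) and in cultured control cells (vertical, log axis), n = 3 libraries each, coloured by role; the dashed line marks equal values. LGMN, CTSZ, PSAP, CTSS and CTSC sit furthest above the line (LGMN at 22.2 times), while 9 genes, the protease TPP1 among them, lie under it.

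The comparison of freshly sorted irradiated with control cells asked whether lysosomal transcripts differed at least 9 weeks after irradiation, before any culture. None of the 38 genes rose or fell in the limma fit, and 3 had an unadjusted p under 0.05. The background was low as well: 0.0698% of the 12890 genes tested rose and 0.031% fell, and 885 had an unadjusted p under 0.05. The median change of the set was 0.0019, against 0.0084 over all genes, with 22 of 38 above 0 and 52.8% of all genes above 0. For 4 genes (TPP1, GLB1, SGSH and GM2A) every irradiated library lay above every control, which 7.42% of all genes also showed, and for 2 (CTSC and NPC1) every irradiated library lay below, as for 5.28% of all genes.

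The 4 genes with the smallest p in this comparison show the size of what was seen. GM2A read 94.7, 101 and 93.1 FPKM in control and 109, 124 and 124 in irradiated libraries, a difference of 0.30 ± 0.083 (adjusted p = 0.438). CTSC, which activates the serine proteases of granulocyte and mast cell granules, read 18.2, 18.6 and 19.2 in control and 15.1, 17.2 and 16.4 in irradiated libraries (-0.19 ± 0.081, adjusted p = 0.693). TPP1, a tripeptidyl peptidase, read 30.1, 28.3 and 29.5 and 34.4, 33.98 and 31.3 (0.17 ± 0.074, adjusted p = 0.708). In these 3 genes the groups did not overlap, but the gap between them was about as wide as the range of the control libraries or narrower. NPC1, which exports cholesterol from the lysosome, read 15.4, 16.9 and 15.9 in control and 14.5, 14.8 and 13.4 in irradiated libraries (-0.17 ± 0.082, adjusted p = 0.787), again without overlap. CTSS varied the most within a group, reading 32.8, 55.3 and 33.6 in control and 20.4, 68.7 and 31.9 in irradiated libraries, and in both groups replicate 2 was the highest. Summed macrophage markers were also highest in replicate 2 of both groups, at 33.4 FPKM in control (22.1 and 22.9 in the others) and 48.3 in irradiated libraries (20.3 and 24.7). Their part in the spread of CTSS was not tested.

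After 6 days in culture without DL1, lysosomal genes were higher in cells of irradiated mice than in control cells. Of 38 genes 33 rose and 0 fell, against 13.8% of the 12011 genes tested that rose and 15.9% that fell. The changes of all 38 were above 0, as were 44.2% of those over all genes. They ran from 0.14 for GUSB to 1.296 for CD63, with a median of 0.42 against -0.026 over all genes. In 31 genes every irradiated library lay above every control library, which held for 17.6% of all genes. CTSC, CTSZ, IDS, ASAH1 and GM2A did not pass, with changes from 0.21 to 0.34. Each of these 5 passed in at least 1 of the other fits.

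By role, 8 of 10 proteases, all 8 glycosidases, 5 of 6 glycosaminoglycan enzymes, 7 of 9 lipid enzymes and cofactors and all 5 membrane proteins rose in this comparison. The median change was highest in the proteases at 0.69 and lay between 0.36 and 0.47 in the other 4 groups. Macrophage marker genes rose in the same comparison (11 of 12 tested, median 1.05), and their part in the rise of the lysosomal genes was not tested. With median-ratio scaling of the libraries 34 of the 38 rose, while the share of rises among all genes called moved from 46.5 to 57.6%. In the fit on these 2 groups alone 25 of the 38 rose, and CTSH, GUSB, IDUA, LAMP2, MANBA, MCOLN1, PPT1 and SCARB2 no longer passed (adjusted p from 0.0567 to 0.158).

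**Figure D2:**
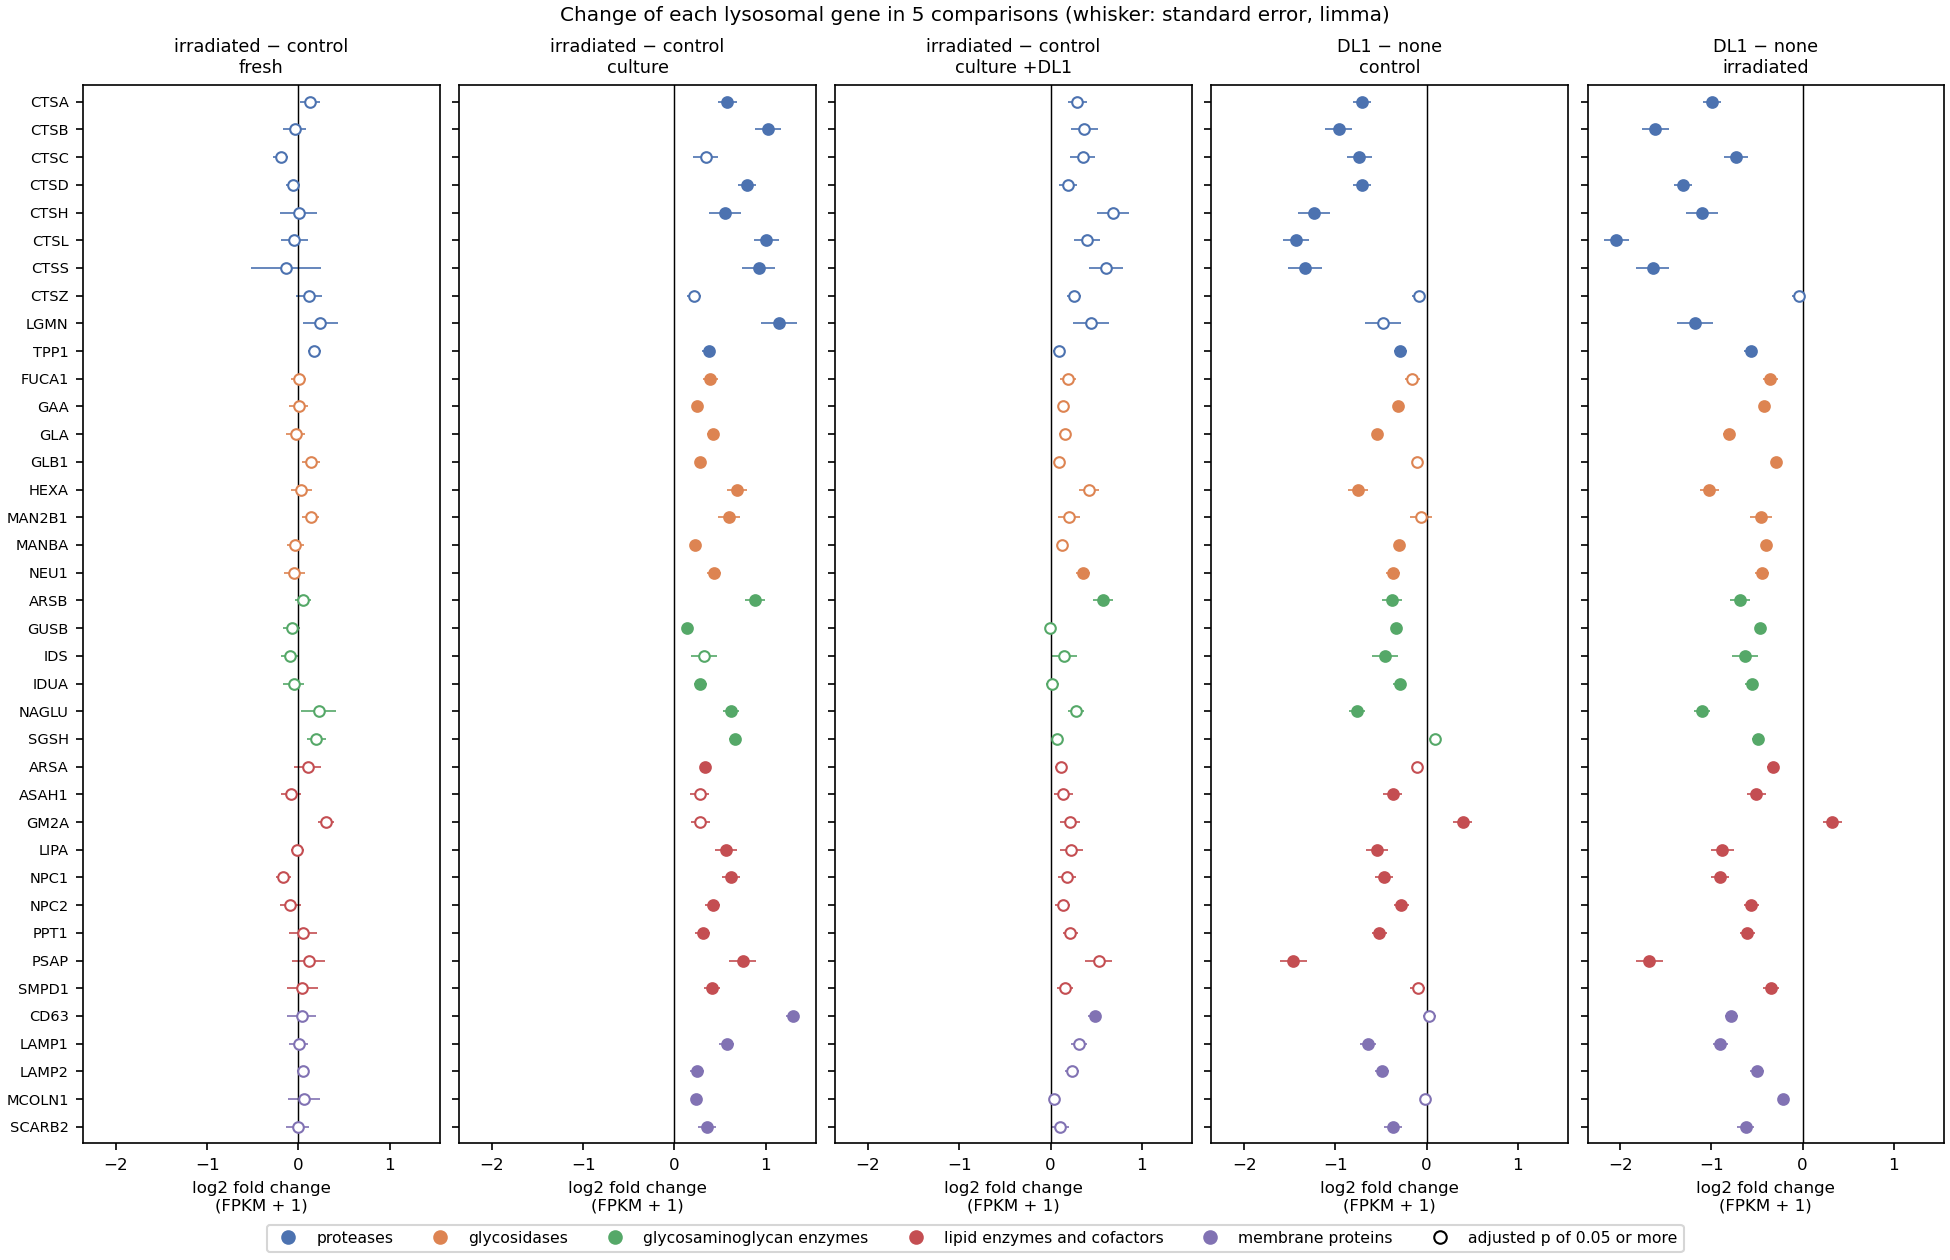
Log2 fold change of each of the 38 lysosomal genes (rows, coloured by role) in 5 comparisons (panels), on the log2(FPKM + 1) scale; whiskers are standard errors, filled points have an adjusted p under 0.05. All points of the freshly sorted panel are open, 33 of the panel of irradiated against control cultures are filled and above 0, and 36 of the last panel are filled and below 0.

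With DL1 in the culture, lysosomal genes were lower than without it, in control and in irradiated cells. In control cells 27 of 38 fell and 1, GM2A, rose, against 12.3% of all genes tested that fell and 14.0% that rose. The median change was -0.37, against 0.037 over all genes, with a range from -1.46 for PSAP to 0.39 for GM2A. In 27 genes every library with DL1 lay below every library without, as in 19.0% of all genes. By role, 8 of 10 proteases, 5 of 8 glycosidases, 5 of 6 glycosaminoglycan enzymes, 6 of 9 lipid enzymes and cofactors and 3 of 5 membrane proteins fell.

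In irradiated cells 36 of 38 fell with DL1 and GM2A again rose, against 17.0% of all genes that fell and 24.4% that rose. The median change was -0.62, against 0.061 over all genes, and CTSL had the lowest value at -2.04. In 36 genes every irradiated library with DL1 lay below every one without, as in 19.7% of all genes. The carboxypeptidase CTSZ was the 1 gene that neither rose nor fell (-0.043 ± 0.075, adjusted p = 0.663). Macrophage markers fell with DL1 as well (12 of 12 tested in both kinds of culture, medians -1.42 in control and -2.13 in irradiated cells), and their part in the fall of the lysosomal genes was not tested. Under median-ratio scaling the counts of genes that fell were again 27 and 36, while the share of rises among all genes called moved from 53.1 to 42.7% in control and from 59.0 to 45.4% in irradiated cultures. The comparisons share libraries: irradiated against control and DL1 in control cells use the same control cultures, and irradiated against control and DL1 in irradiated cells the same irradiated cultures. Their values for each gene are therefore given side by side.

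**Figure D3:**
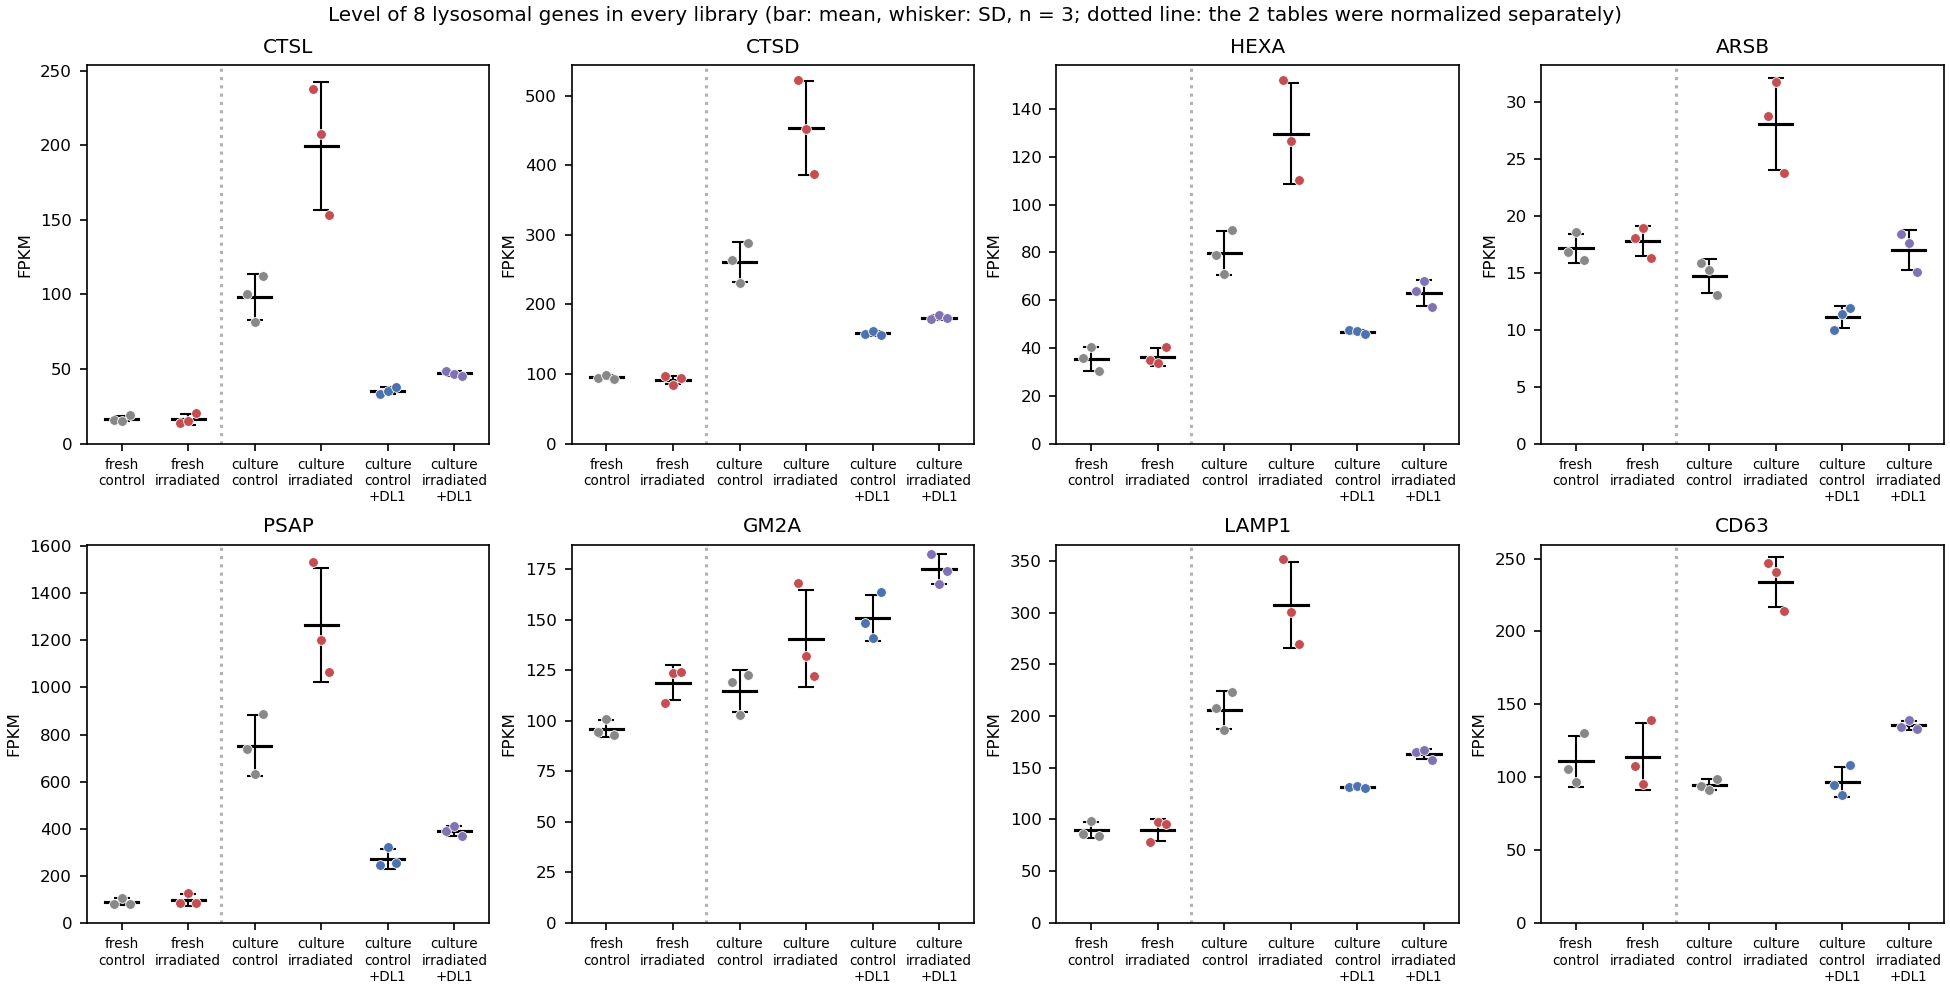
FPKM of 8 lysosomal genes in each of the 18 libraries (points), with the group mean (bar) and SD (whisker, n = 3); the dotted line separates the 2 tables, which were normalized separately. For CTSL, CTSD, HEXA, ARSB, PSAP, LAMP1 and CD63 the irradiated cultures without DL1 are the highest of the 4 culture groups, whereas GM2A is highest in irradiated cultures with DL1.

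Among the proteases, the cysteine endopeptidase CTSL had the lowest change with DL1, in irradiated cells also the lowest of the whole set. It read 101, 81.4 and 112 FPKM in control cultures, 237, 208 and 153 in irradiated, 33.4, 35.1 and 37.8 in control with DL1 and 48.8, 46.8 and 45.4 in irradiated cultures with DL1. The 4 groups did not overlap, and every library with DL1 lay below every library without it. CTSL rose by 1.01 ± 0.14 after irradiation (adjusted p = 0.000654) and fell with DL1, with changes of -1.43 ± 0.14 in control (adjusted p = 1.63e-05) and -2.04 ± 0.14 in irradiated cells (adjusted p = 9.40e-07).

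The aspartyl protease CTSD, which activates other cathepsins and degrades bulk protein, read 263, 230.3 and 288 FPKM in control cultures, 522, 452 and 387 in irradiated, 157, 162 and 156 in control with DL1 and 179, 185 and 180.1 in irradiated cultures with DL1. Libraries with DL1 lay close together, the irradiated ones just above the controls, and both under all libraries without DL1. Its changes were 0.79 ± 0.10 after irradiation (adjusted p = 0.000312), -0.71 ± 0.10 with DL1 in control (adjusted p = 0.000178) and -1.31 ± 0.10 in irradiated cells (adjusted p = 1.33e-06). CTSB, a cysteine protease with endopeptidase and carboxypeptidase activity, read 113, 91.7 and 133 in control, 288, 218 and 186 in irradiated, 55.8, 59.4 and 54.9 in control with DL1 and 75.3, 78.04 and 67.8 in irradiated cultures with DL1. It showed the same order of groups without overlap, with changes of 1.02 ± 0.15 after irradiation (adjusted p = 0.000757), -0.96 ± 0.15 with DL1 in control (adjusted p = 0.000417) and -1.61 ± 0.15 in irradiated cells (adjusted p = 5.78e-06).

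CTSS, which trims the invariant chain of MHC class II, read 315, 252 and 394 FPKM in control cultures, 793, 589.6 and 455 in irradiated, 119, 131 and 124 in control with DL1 and 206, 200.5 and 168 in irradiated cultures with DL1. Irradiated replicate 1 stood well above replicates 2 and 3, and no group overlapped another. CTSS rose by 0.92 ± 0.18 after irradiation (adjusted p = 0.00403) and fell with DL1, with changes of -1.33 ± 0.18 in control cells (adjusted p = 0.000198) and -1.64 ± 0.18 in irradiated cells (adjusted p = 2.66e-05). LGMN read 43.4, 31.9 and 59.7 FPKM in control cultures, 126, 96.1 and 76.4 in irradiated, 30.4, 30.6 and 32.2 in control with DL1 and 45.7, 42.99 and 38.99 in irradiated cultures with DL1. Its control libraries spread widely and overlapped both groups with DL1. LGMN had the second highest change after irradiation in the set (1.14 ± 0.20, adjusted p = 0.00190) and fell with DL1 in irradiated cells (-1.18 ± 0.20), but not in control cells (-0.48 ± 0.20, adjusted p = 0.0928) unless control replicate 2 was left out (adjusted p = 0.0145). The aminopeptidase CTSH fell with DL1, with changes of -1.23 ± 0.17 and -1.10 ± 0.17 in control and irradiated cells, and its rise after irradiation (0.55 ± 0.17, adjusted p = 0.0332) came with overlapping groups. Without control replicate 1 or 2, or irradiated replicate 1 or 2, the rise of CTSH no longer passed (0.0757 with no filter on low values), with adjusted p from 0.0532 to 0.140.

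CTSA, the protective protein that stabilises beta-galactosidase and neuraminidase, rose by 0.58 ± 0.10 after irradiation and fell with DL1, with changes of -0.71 ± 0.10 and -0.99 ± 0.10 in control and irradiated cells. TPP1 rose by 0.38 ± 0.070 after irradiation, and its changes with DL1 were -0.29 ± 0.070 and -0.57 ± 0.070, both passing. CTSC fell with DL1, with changes of -0.74 ± 0.14 and -0.73 ± 0.14, while its change after irradiation of 0.34 ± 0.14 did not pass (adjusted p = 0.0751) unless irradiated replicate 3 was left out (adjusted p = 0.0110). CTSZ stood apart from the other proteases: it read 226, 216 and 264 FPKM in control cultures, 297, 253 and 267 in irradiated, 218, 225 and 219.8 in control with DL1 and 261, 275 and 255 in irradiated cultures with DL1, and passed in none of the comparisons. Its change after irradiation did pass under median-ratio scaling (adjusted p = 0.0311) and without control replicate 3 or irradiated replicate 2 (adjusted p = 0.00856 and 0.0415).

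Among the glycosidases, all 8 rose after irradiation in culture. GLA, the alpha-galactosidase that is lost in Fabry disease, read 14.9, 13.8 and 13.3 FPKM in control cultures, 19.8, 19.2 and 18.2 in irradiated, 9.14, 9.99 and 8.74 in control with DL1 and 10.1, 10.9 and 10.3 in irradiated cultures with DL1. Its replicates were close together and no 2 groups overlapped. GLA rose by 0.42 ± 0.061 after irradiation (adjusted p = 0.000792) and fell with DL1, with changes of -0.54 ± 0.061 in control cells (adjusted p = 4.67e-05) and -0.81 ± 0.061 in irradiated cells (adjusted p = 1.69e-06).

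HEXA, the alpha subunit of beta-hexosaminidase that is lost in Tay-Sachs disease, read 78.9, 71.2 and 89.4 FPKM in control cultures, 152, 127 and 110.3 in irradiated, 47.5, 46.9 and 45.96 in control with DL1 and 64.03, 67.9 and 57.2 in irradiated cultures with DL1. The 4 groups were again separate, with all libraries with DL1 under all without. HEXA rose by 0.69 ± 0.11 after irradiation (adjusted p = 0.00119) and fell with DL1, with changes of -0.75 ± 0.11 in control (adjusted p = 0.000268) and -1.02 ± 0.11 in irradiated cells (adjusted p = 1.75e-05), the lowest values among the glycosidases. GAA, which degrades lysosomal glycogen, moved less: it read 22.2, 22.3 and 22.2 in control cultures, 27.4, 26.97 and 25.3 in irradiated, 16.99, 17.9 and 18.4 in control with DL1 and 19.3, 18.99 and 20.4 in irradiated cultures with DL1. Its 3 control values were nearly equal, and it rose by 0.24 ± 0.049 (adjusted p = 0.00405) and fell with DL1, with changes of -0.31 ± 0.049 and -0.42 ± 0.049 in control and irradiated cells (adjusted p = 0.000507 and 3.41e-05).

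The sialidase NEU1 read 17.6, 17.8 and 20.1 FPKM in control cultures, 25.5, 26.6 and 23.8 in irradiated, 13.9, 14.4 and 14.1 in control with DL1 and 18.7, 20.4 and 16.2 in irradiated cultures with DL1. Unlike GLA and HEXA, its irradiated libraries with DL1 overlapped the control libraries without DL1. NEU1 rose by 0.43 ± 0.077 after irradiation (adjusted p = 0.00238) and fell with DL1, with changes of -0.37 ± 0.077 and -0.44 ± 0.077 (adjusted p = 0.00402 and 0.000792). The alpha-mannosidase MAN2B1 rose by 0.59 ± 0.12, and its change with DL1 was -0.064 ± 0.12 in control cells (adjusted p = 0.733) and -0.45 ± 0.12 in irradiated cells, where it passed. GLB1, the beta-galactosidase, and FUCA1, the alpha-fucosidase, likewise rose after irradiation (0.28 and 0.39) and fell with DL1 in irradiated cells (-0.29 and -0.36) but not in control cells (-0.10 and -0.16). The beta-mannosidase MANBA rose by 0.23 ± 0.052 and fell with DL1, with changes of -0.31 ± 0.052 and -0.41 ± 0.052. Its rise was lost only where the 2 groups were fitted alone (adjusted p = 0.0573).

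The 6 glycosaminoglycan enzymes act in turn on heparan, dermatan and chondroitin sulfate chains. NAGLU, which removes N-acetylglucosamine from heparan sulfate, read 9.42, 8.60 and 10.6 FPKM in control cultures, 16.8, 15.3 and 13.5 in irradiated, 5.17, 5.39 and 5.05 in control with DL1 and 6.06, 7.25 and 6.32 in irradiated cultures with DL1. No groups overlapped, and the control cultures with DL1 held the lowest values. NAGLU rose by 0.62 ± 0.089 after irradiation (adjusted p = 0.000742) and fell with DL1, with changes of -0.76 ± 0.089 in control (adjusted p = 6.10e-05) and -1.10 ± 0.089 in irradiated cells (adjusted p = 2.51e-06).

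SGSH, which removes N-linked sulfate from heparan sulfate, read 3.58, 3.77 and 3.67 FPKM in control cultures, 6.91, 6.35 and 5.91 in irradiated, 3.79, 3.93 and 4.25 in control with DL1 and 4.31, 4.13 and 4.32 in irradiated cultures with DL1. Only the irradiated cultures without DL1 stood out, since the other 3 groups lay between 3.58 and 4.32 FPKM. SGSH rose by 0.66 ± 0.064 after irradiation (adjusted p = 0.000108), changed by 0.093 ± 0.064 with DL1 in control cells (adjusted p = 0.314) and fell by 0.49 ± 0.064 with DL1 in irradiated cells (adjusted p = 9.38e-05). ARSB, the sulfatase of dermatan and chondroitin sulfate, read 15.9, 15.2 and 13.03 in control cultures, 28.8, 31.7 and 23.8 in irradiated, 10.01, 11.4 and 11.9 in control with DL1 and 18.4, 17.7 and 15.1 in irradiated cultures with DL1. Irradiated libraries with DL1 overlapped the controls without it, and irradiated libraries without DL1 were well above both. ARSB rose by 0.89 ± 0.11 after irradiation (adjusted p = 0.000357) and fell with DL1, with changes of -0.37 ± 0.11 in control cells (adjusted p = 0.0246) and -0.69 ± 0.11 in irradiated cells (adjusted p = 0.000417). The fall in control cells was lost without control replicate 1 or 2 or control replicate 1 with DL1 (adjusted p from 0.0728 to 0.104).

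GUSB, the beta-glucuronidase, read 86.2, 85.5 and 87.96 FPKM in control cultures, 101, 94.6 and 90.1 in irradiated, 69.97, 67.6 and 68.4 in control with DL1 and 68.8, 68.7 and 67.6 in irradiated cultures with DL1. Both groups with DL1 occupied the same range, below both groups without. It fell with DL1, with changes of -0.33 ± 0.045 and -0.47 ± 0.045 in control and irradiated cells (adjusted p = 0.000171 and 7.64e-06). Its rise after irradiation was the smallest of the set (0.14 ± 0.045, adjusted p = 0.0387) and was lost without any 1 of the libraries other than irradiated replicate 3 and irradiated replicate 3 with DL1, with adjusted p up to 0.126. IDUA, the alpha-iduronidase, read 8.92, 7.78 and 9.28 in control cultures, 11.5, 10.2 and 10.5 in irradiated, 7.14, 7.04 and 6.44 in control with DL1 and 6.64, 7.36 and 6.92 in irradiated cultures with DL1. Here too the groups with DL1 overlapped each other and lay under the others. IDUA rose by 0.28 ± 0.071 (adjusted p = 0.0132; 0.0628 without control replicate 2 and 0.0528 without irradiated replicate 1) and fell with DL1, with changes of -0.29 ± 0.071 and -0.56 ± 0.071. The iduronate sulfatase IDS fell with DL1, with changes of -0.45 ± 0.14 in control cells (adjusted p = 0.0349) and -0.63 ± 0.14 in irradiated cells. The call in control cells was lost with no filter on low values (0.0718) and without any 1 control library, with or without DL1, other than control replicate 2, with adjusted p from 0.0516 to 0.122.

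Among the lipid enzymes and cofactors, PSAP was the most abundant gene of the whole set in culture. It read 740.0, 631 and 887 FPKM in control cultures, 1535, 1202 and 1065 in irradiated, 243, 321 and 253 in control with DL1 and 389, 412 and 370.2 in irradiated cultures with DL1. All libraries with DL1 lay under all without, and within both kinds of culture the irradiated libraries were the higher ones. PSAP rose by 0.75 ± 0.15 after irradiation (adjusted p = 0.00385) and fell with DL1, with changes of -1.46 ± 0.15 in control (adjusted p = 2.06e-05) and -1.68 ± 0.15 in irradiated cells (adjusted p = 4.45e-06).

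NPC1 read 11.4, 9.32 and 10.96 FPKM in control cultures, 19.4, 16.3 and 14.7 in irradiated, 6.89, 7.49 and 7.58 in control with DL1 and 9.03, 7.66 and 8.63 in irradiated cultures with DL1. Groups with and without DL1 did not overlap, and irradiated cultures without DL1 were the highest. NPC1 rose by 0.62 ± 0.10 after irradiation (adjusted p = 0.00124) and fell with DL1, with changes of -0.47 ± 0.10 and -0.91 ± 0.10 in control and irradiated cells (adjusted p = 0.00364 and 2.04e-05). NPC2, the soluble partner that hands cholesterol to NPC1, read 68.6, 65.4 and 79.9 in control cultures, 108, 91.7 and 88.02 in irradiated, 58.8, 60.5 and 56.3 in control with DL1 and 63.1, 67.02 and 62.7 in irradiated cultures with DL1. Its groups followed the same order with smaller steps, with changes of 0.42 ± 0.082 after irradiation (adjusted p = 0.00354) and -0.56 ± 0.082 with DL1 in irradiated cells (adjusted p = 0.000198). The fall of NPC2 with DL1 in control cells (-0.28 ± 0.082, adjusted p = 0.0257) was lost without control replicate 3 or control replicates 1 or 3 with DL1 (adjusted p from 0.0665 to 0.0921).

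PPT1, a thioesterase that removes palmitate from proteins, read 43.8, 37.9 and 44.3 FPKM in control cultures, 56.1, 53.98 and 46.7 in irradiated, 29.1, 29.8 and 28.1 in control with DL1 and 34.8, 35.98 and 30.99 in irradiated cultures with DL1. Every library with DL1 was under every library without. PPT1 fell with DL1, with changes of -0.52 ± 0.080 and -0.61 ± 0.080 in control and irradiated cells (adjusted p = 0.000473 and 9.93e-05), and its rise after irradiation (0.31 ± 0.080, adjusted p = 0.0146) was lost without control replicate 2, irradiated replicate 1 or irradiated replicate 2 (adjusted p from 0.0507 to 0.0686). ARSA, the sulfatase that degrades sulfatide, read 9.61, 8.58 and 9.84 in control cultures, 12.4, 11.98 and 11.7 in irradiated, 8.26, 8.78 and 8.85 in control with DL1 and 8.98, 10.02 and 9.25 in irradiated cultures with DL1. It stood out in irradiated cultures without DL1 alone, while the other 3 groups overlapped or touched: it rose by 0.34 ± 0.061 after irradiation (adjusted p = 0.00256) and fell by 0.33 ± 0.061 with DL1 in irradiated cells (adjusted p = 0.00127), with -0.10 ± 0.061 in control cells (adjusted p = 0.251).

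GM2A was the exception of the set. It read 119, 103 and 123 FPKM in control cultures, 168, 132 and 122 in irradiated, 148, 141 and 164 in control with DL1 and 183, 168 and 174 in irradiated cultures with DL1. The libraries with DL1 were the higher ones, without overlap in control cells and with irradiated replicate 1 at the level of the DL1 libraries in irradiated cells. GM2A rose with DL1 by 0.39 ± 0.11 in control cells (adjusted p = 0.0154) and by 0.33 ± 0.11 in irradiated cells (adjusted p = 0.0269). The first of these calls was lost without control replicate 2 or control replicate 3 with DL1 (adjusted p = 0.0651 and 0.0686), and the other with no filter on low values (0.0543), under median-ratio scaling (0.0829), with the 2 groups alone (0.0580) and without irradiated replicates 2 or 3 or irradiated replicates 1 or 3 with DL1 (0.0616 to 0.0893). The acid lipase LIPA rose by 0.57 ± 0.12 after irradiation and fell with DL1, with changes of -0.54 ± 0.12 and -0.88 ± 0.12. The acid sphingomyelinase SMPD1 rose by 0.41 ± 0.084 and fell by 0.35 ± 0.084 with DL1 in irradiated cells, with -0.10 ± 0.084 in control cells (adjusted p = 0.433). The acid ceramidase ASAH1 fell with DL1, with changes of -0.37 ± 0.10 and -0.51 ± 0.10, the former lost without control replicates 1 or 3 or control replicates 1 or 3 with DL1 (adjusted p from 0.0653 to 0.0784), and did not pass after irradiation (0.28 ± 0.10, adjusted p = 0.0629) unless irradiated replicate 3 was left out (0.00976).

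All 5 membrane proteins rose after irradiation in culture, and CD63 had the highest change of the 38 genes. CD63 read 94.02, 91.1 and 98.6 FPKM in control cultures, 247, 241 and 214 in irradiated, 94.6, 87.96 and 108 in control with DL1 and 134, 139 and 133 in irradiated cultures with DL1. Control libraries with and without DL1 occupied the same range, irradiated libraries with DL1 lay above both, and irradiated libraries without DL1 above all others. CD63 rose by 1.296 ± 0.073 after irradiation (adjusted p = 3.00e-06), changed by 0.029 ± 0.073 with DL1 in control cells (adjusted p = 0.803) and fell by 0.78 ± 0.073 with DL1 in irradiated cells (adjusted p = 7.05e-06).

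LAMP1, an abundant glycoprotein of the lysosomal membrane, read 208, 186 and 224 FPKM in control cultures, 352, 300.4 and 269.9 in irradiated, 131, 132 and 130.5 in control with DL1 and 165, 167 and 158 in irradiated cultures with DL1. Its 3 control libraries with DL1 were nearly equal, and the 4 groups were separate. LAMP1 rose by 0.57 ± 0.086 after irradiation (adjusted p = 0.000951) and fell with DL1, with changes of -0.64 ± 0.086 in control (adjusted p = 0.000156) and -0.90 ± 0.086 in irradiated cells (adjusted p = 7.96e-06). LAMP2, its relative with a part in chaperone-mediated autophagy, read 149.7, 132 and 142 in control cultures, 187, 169 and 148 in irradiated, 97.8, 102 and 101 in control with DL1 and 125, 117 and 112 in irradiated cultures with DL1. Irradiated replicate 3 without DL1 fell within the control range, so the groups overlapped there, whereas libraries with DL1 were all below those without. LAMP2 fell with DL1, with changes of -0.49 ± 0.078 and -0.50 ± 0.078 (adjusted p = 0.000547 and 0.000325), and its rise after irradiation (0.24 ± 0.078, adjusted p = 0.0339) was lost with no filter on low values (0.0642) and without control replicates 2 or 3 or irradiated replicates 1 or 2 (adjusted p from 0.0629 to 0.135).

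SCARB2, a membrane protein that takes part in sorting to the lysosome, read 22.9, 19.7 and 21.9 FPKM in control cultures, 31.9, 28.7 and 23.4 in irradiated, 15.3, 16.9 and 16.97 in control with DL1 and 18.9, 16.8 and 17.3 in irradiated cultures with DL1. Irradiated libraries without DL1 lay above all others, and those with DL1 below the controls without it. SCARB2 fell with DL1, with changes of -0.37 ± 0.10 in control cells (adjusted p = 0.0140; 0.0643 without control replicate 1 and 0.0624 without control replicate 1 with DL1) and -0.63 ± 0.10 in irradiated cells (adjusted p = 0.000335). Its rise after irradiation (0.36 ± 0.10, adjusted p = 0.0177) was lost without control replicate 2 or irradiated replicates 1 or 2 (adjusted p from 0.0560 to 0.0781). MCOLN1, the TRPML1 cation channel that releases lysosomal calcium, read 11.8, 12.7 and 13.8 in control cultures, 14.8, 15.5 and 15.6 in irradiated, 12.7, 12.6 and 12.6 in control with DL1 and 12.6, 13.3 and 13.1 in irradiated cultures with DL1. The steps were small, and the 3 groups other than irradiated without DL1 overlapped. MCOLN1 rose by 0.24 ± 0.055 after irradiation (adjusted p = 0.00827; 0.0585 with the 2 groups alone) and fell by 0.22 ± 0.055 with DL1 in irradiated cells (adjusted p = 0.00839).

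In cultures with DL1, fewer lysosomal genes passed between irradiated and control cells. NEU1, ARSB and CD63 rose and 0 fell, against 2.51% of all genes that rose and 0.649% that fell. Even so, 37 of 38 changes were above 0, as were 44.6% of those over all genes, and the median was 0.21 against -0.017. In 29 genes every irradiated library lay above every control, as in 15.6% of all genes. CD63 rose by 0.48 ± 0.073 (adjusted p = 0.00675), ARSB by 0.57 ± 0.11 (adjusted p = 0.0164) and NEU1 by 0.36 ± 0.077 (adjusted p = 0.0311). The highest value, that of CTSH, did not pass (0.69 ± 0.17, adjusted p = 0.0579), and CTSS (0.61 ± 0.18, adjusted p = 0.102) and PSAP (0.53 ± 0.15, adjusted p = 0.0807) came close to it in size.

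The count with DL1 depended on how the spread was estimated: with only these 2 groups in the fit 18 of the 38 passed, and without irradiated replicate 1 or irradiated replicate 3, libraries outside the comparison, 10 did. Without control replicate 3, also outside it, 5 passed, and without control replicate 1 with DL1, irradiated replicate 1 with DL1 or irradiated replicate 2 with DL1 only 1 did. The calls for ARSB and NEU1 were lost in those last 3 fits (ARSB adjusted p = 0.0839, 0.0738 and 0.0811; NEU1 0.127, 0.105 and 0.129), and that for NEU1 also without control replicates 2 or 3 with DL1 (0.0670 and 0.102). With no filter on low values they were 0.0502 and 0.0671. Irradiated replicate 2 with DL1 is the library of lowest depth.

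Whether the change after irradiation itself differed with DL1 was tested as an interaction, the change with DL1 minus the change without. Of the 38 genes 2 passed, both with a smaller change in the presence of DL1: CD63 (-0.81 ± 0.10, adjusted p = 0.0142) and SGSH (-0.58 ± 0.091, adjusted p = 0.0431). Among all genes 0.025% passed above 0 and 0.05% below. The median difference of the set was -0.26 against 0.015 over all genes. Of the 38 genes 35 lay below 0, whereas 54.6% of all genes lay above 0. An unadjusted p under 0.05 was found for 17 of the 38 and for 1255 of the 12011 genes tested. CTSB (-0.65, adjusted p = 0.307), LGMN (-0.70, adjusted p = 0.407), CTSL (-0.61, adjusted p = 0.320) and CTSD (-0.60, adjusted p = 0.149) had values of similar size that did not pass.

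Neither call of this interaction held in every fit. With the replicate number as a block both were lost (adjusted p = 0.0528 for CD63 and 0.0918 for SGSH). The CD63 call was lost without control replicate 1, without irradiated replicate 2 and without any 1 of the irradiated libraries with DL1 (adjusted p from 0.0534 to 0.0722), and the SGSH call without any 1 library other than irradiated replicate 3 (adjusted p from 0.0735 to 0.137). With no filter on low values both were lost (0.0513 and 0.0808), as was SGSH under median-ratio scaling (0.0638). Without irradiated replicate 3 there were 4 calls, with CTSD (0.0243) and CTSL (0.0341) added.

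Taken as an order of the 4 culture means, irradiated cells without DL1 were the highest for 37 of the 38 genes, the exception being GM2A, and this order held for 28.8% of all genes. Control cells with DL1 were the lowest for 34 of 38, the exceptions being SGSH, GUSB, GM2A and CD63, against 24.3% of all genes. Irradiated cells with DL1 had a lower mean than control cells without DL1 for 28 of 38, against 46.1% of all genes. The 10 genes for which they had the higher mean were CTSZ, MAN2B1, FUCA1, SGSH, ARSB, ARSA, SMPD1, GM2A, CD63 and MCOLN1. These orders restate the group means and carry no test of their own.

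In cultures without DL1 the lysosomal genes also moved together between replicates of a group. In irradiated cultures without DL1, replicate 1 was the highest for 33 of the 38 genes, against 31.2% of all genes, and replicate 3 the lowest for 34, against 31.0%. In control cultures, replicate 3 was the highest for 28 (38% of all genes) and replicate 2 the lowest for 32 (32.5%). The other groups were more mixed: no replicate was the highest for more than 20 of the 38 genes, or the lowest for more than 23. Summed over the set, control cultures held 3375, 2940 and 3797 FPKM, irradiated cultures 6296, 5176 and 4520, control cultures with DL1 2025, 2158 and 2085, and irradiated cultures with DL1 2663, 2691 and 2490. The groups did not overlap in this sum, and the spread was widest in irradiated cultures without DL1. As a share of all FPKM the set held 0.527 to 0.669% in control, 0.798 to 1.14% in irradiated, 0.354 to 0.378% in control with DL1 and 0.437 to 0.474% in irradiated cultures with DL1. Freshly sorted libraries held less, 1132, 1213 and 1137 FPKM in control and 1102, 1286 and 1219 in irradiated cells.

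Markers of macrophages followed the same libraries. The 15 markers found summed to 284, 221 and 348 FPKM in control cultures, 712, 567 and 439 in irradiated, 85.0, 104.9 and 81.4 in control with DL1 and 146, 152 and 139 in irradiated cultures with DL1. As with the lysosomal genes, irradiated replicate 1 and control replicate 3 were the highest of their groups and irradiated replicate 3 and control replicate 2 the lowest. CSF1R, the receptor of the macrophage growth factor, had means of 152 ± 30.2 FPKM in control, 238 ± 51.9 in irradiated, 54.8 ± 9.72 in control with DL1 and 82.6 ± 3.30 in irradiated cultures with DL1. MARCO and VSIG4, markers of tissue macrophages, were at or near 0 in all cultured groups, and up to 2 of the 15 markers were at 0 in a library. Between irradiated and control cultures with DL1, 3 of the 12 tested markers rose. The part of these cells in the levels of the lysosomal genes was not tested.

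**Figure D4:**
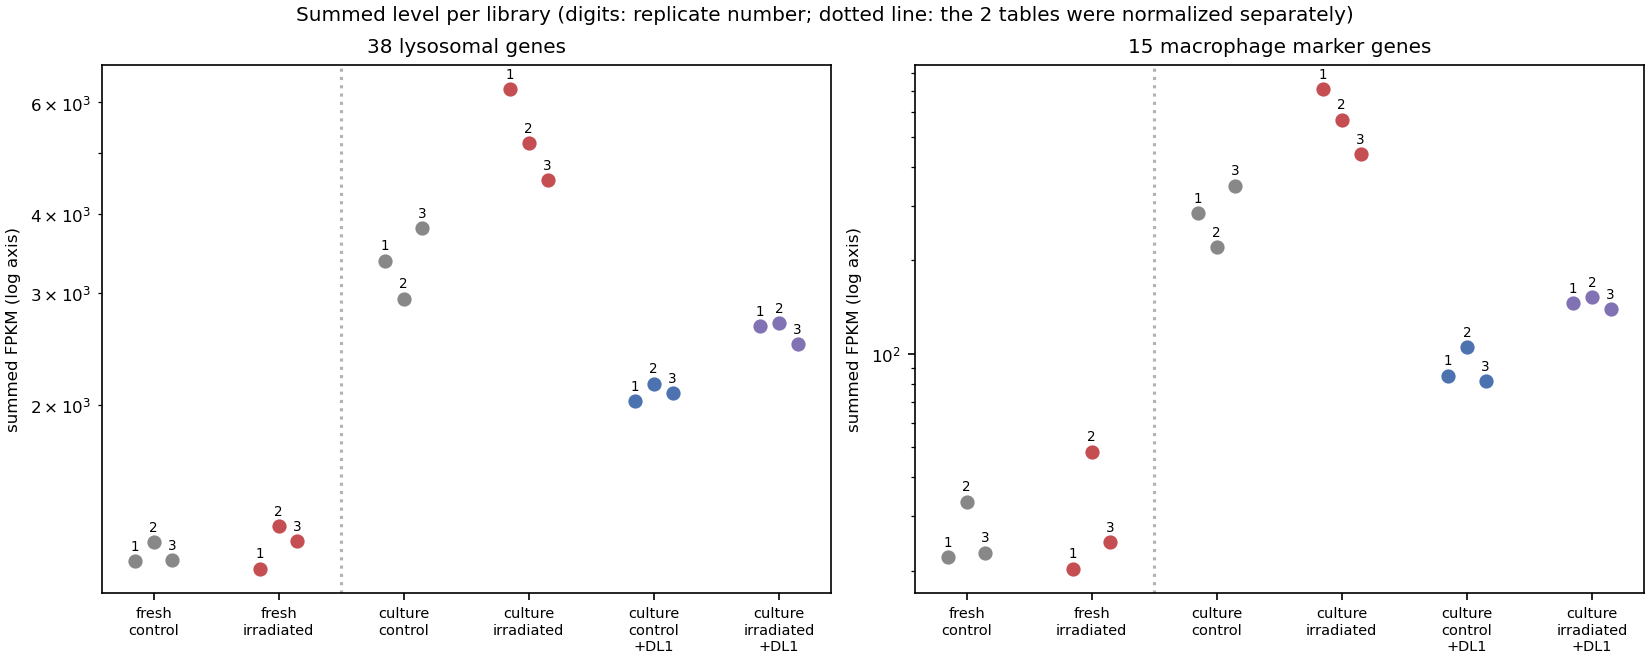
Summed FPKM of the 38 lysosomal genes (left) and of 15 macrophage marker genes (right) in each library, log axes; digits are replicate numbers and the dotted line separates the 2 tables, normalized separately. In both panels irradiated replicate 1 without DL1 is the highest library (6296 and 712 FPKM) and the cultures with DL1 lie below those without.

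Granulocyte markers moved in the same direction as the lysosomal genes in culture. All 5 markers of early granulocytes tested rose after irradiation without and with DL1 and fell with DL1 in control and irradiated cells. Their sum ranged from 3804 to 4534 FPKM in control, 6687 to 8011 in irradiated, 2826 to 3028 in control with DL1 and 4116 to 4933 in irradiated cultures with DL1. Of 8 late neutrophil markers tested, 5 rose after irradiation and 7 fell (1 rose) with DL1 in irradiated cells. The part of these cells, too, was not tested. Of 4 megakaryocyte markers tested, 3 rose after irradiation, with a list median of 0.989. With DL1 in irradiated cells PF4 and PPBP fell and ITGA2B rose, and in control cells ITGA2B rose and 0 fell. For PF4 and PPBP the change after irradiation was lower with DL1 by the interaction test in limma. The part of megakaryocytic cells was not tested either. In other lists, 5 of 10 markers of mast cells, basophils and eosinophils rose after irradiation. Of these 10, 3 rose and 0 fell with DL1 in control cells, and 2 rose and 3 fell in irradiated cells. Dendritic cell markers rose with DL1 in control and in irradiated cells (3 of 6 in each). Over all genes 13.8% rose after irradiation without DL1 and 2.51% with it. The shares that rose and fell with DL1 were 14.0% and 12.3% in control and 24.4% and 17.0% in irradiated cells. The genes of the sort itself were present in every group. KIT stood at 34.9 ± 2.77 FPKM in control cultures, 35.5 ± 2.80 in irradiated, between 38.1 and 40.2 in the control libraries with DL1 and 34.3 ± 2.46 in irradiated cultures with DL1, and LY6A, which encodes Sca1, at 496 ± 64.9, 549 ± 69.1, 597 ± 7.38 and 591 ± 10.6 in the same order. Other stem and progenitor markers of the 8 tested in culture changed: CD34, FLT3 and MEIS1 fell after irradiation, with FLT3 the lowest (-1.11). With DL1 FLT3 and MEIS1 rose, and HLF and HOXA9 fell, in control and in irradiated cells. LY6A also rose with DL1 in control cells, and CD34 and SLAMF1 in irradiated cells. After irradiation with DL1, CD34 and MEIS1 fell. The part of these shifts in the levels of the lysosomal genes was not tested. In freshly sorted cells KIT stood at 106 ± 10.2 and LY6A at 166 ± 40.2 FPKM in the control libraries.

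TCFEB, the symbol under which the tables list the master regulator TFEB, was low and passed in no comparison. It read 3.41, 4.02 and 3.79 FPKM in freshly sorted control and 3.71, 4.51 and 4.06 in freshly sorted irradiated libraries. In culture it read 9.17, 8.36 and 11.3 in control, 12.8, 9.36 and 10.5 in irradiated, 8.93, 9.97 and 9.36 in control with DL1 and 11.5, 12.7 and 11.1 in irradiated libraries with DL1. The groups overlapped except that irradiated cultures with DL1 lay above control cultures with DL1. The changes were 0.16 ± 0.11 after irradiation (adjusted p = 0.307), 0.29 ± 0.11 after irradiation with DL1 (adjusted p = 0.193; 0.0363 with the 2 groups alone), -0.019 ± 0.11 with DL1 in control (adjusted p = 0.921) and 0.11 ± 0.11 in irradiated cells (adjusted p = 0.446). These values concern the transcript only, whereas TFEB is known to be controlled largely by phosphorylation and its place in the cell.

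Of the wider list of 21 genes for the MiT/TFE family and the mTORC1 branch that controls it, 9 rose after irradiation in culture, among them RRAGC (0.29 ± 0.042), a Rag GTPase on the lysosomal surface, and FLCN (0.34 ± 0.055), its regulator folliculin. Over all genes 13.8% rose there. The 9 also included MITF (0.51, the highest of the list) and TCFEC, both of the MiT/TFE family. MITF fell with DL1 in control and in irradiated cells. With DL1 5 fell and 1 rose in control cells (12.3% and 14.0% of all genes), with a list median of 0.010, and 7 fell and 3 rose in irradiated cells (17.0% and 24.4% of all genes). TCFEC, the family member restricted largely to myeloid cells, fell with DL1, with changes of -1.01 ± 0.10 in control and -0.82 ± 0.10 in irradiated cells, and FNIP2, a partner of folliculin, fell as well (-0.86 ± 0.11 and -0.96 ± 0.11). TCFEC was also the 1 gene of this list that rose after irradiation with DL1 (0.58 ± 0.10, adjusted p = 0.00856).

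In the remaining lysosomal lists, too, more genes rose than fell after irradiation. Of 18 subunits and accessory proteins of the V-ATPase, the proton pump, 10 rose after irradiation, as did 13.8% of all genes. The smallest p were those of ATP6V0D1 (0.35 ± 0.047) and ATP6AP2 (0.45 ± 0.070). With DL1 6 fell and 1 rose in control cells (12.3% and 14.0% of all genes), and 9 fell and 1 rose in irradiated cells (17.0% and 24.4%). In irradiated cells ATP6V0C (-0.48 ± 0.056) and ATP6V0A1 (-0.63 ± 0.087) had the smallest p. In control cells these were ATP6V0C (-0.33) and ATP6V1B2 (-0.28). With DL1, ATP6V0D1 alone rose after irradiation (0.24 ± 0.047). The medians of the list were 0.21 after irradiation, -0.080 with DL1 in control and -0.18 in irradiated cells.

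Of 28 further lysosomal hydrolases and cofactors 16 rose after irradiation and 0 fell (13.8% and 15.9% of all genes), with a median of 0.30. GALC, which degrades galactosylceramide, rose by 0.55 ± 0.081 and fell with DL1, with changes of -1.01 ± 0.081 in control and -1.37 ± 0.081 in irradiated cells. With DL1 14 fell and 1 rose in control cells (12.3% and 14.0% of all genes), and 19 fell and 3 rose in irradiated cells (17.0% and 24.4%). The gene that rose in control cells was CTSW, a cathepsin of cytotoxic lymphocytes (1.495 ± 0.13). The phospholipase PLA2G15 fell with DL1 in control cells and, by 0.96 ± 0.085, in irradiated cells. In cultures with DL1, ACP5, the tartrate-resistant acid phosphatase, rose by 0.71 ± 0.15 and SUMF1, which activates sulfatases, by 0.26 ± 0.063 after irradiation.

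Of 19 other lysosomal membrane proteins 10 rose and 1 fell after irradiation (13.8% and 15.9% of all genes). SLC11A1, the metal transporter of phagocyte lysosomes, rose by 1.22 ± 0.18 and fell with DL1, with changes of -1.15 ± 0.18 in control and -2.13 ± 0.18 in irradiated cells. The sialic acid exporter SLC17A5 rose by 0.48 ± 0.059 and fell with DL1 in control and in irradiated cells (-0.51 ± 0.059 in the latter). LAPTM4A also fell with DL1 in both kinds of culture (-0.30 ± 0.065 in control cells). LAPTM4B, its relative, fell after irradiation without DL1 (-0.35) and with it (-0.37 ± 0.092). Altogether 5 of the 19 fell and 1 rose with DL1 in control cells (12.3% and 14.0% of all genes), and 9 fell in irradiated cells (17.0% of all genes).

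Of 22 genes for sorting to the lysosome 8 rose and 1 fell after irradiation (13.8% and 15.9% of all genes), the smallest p being those of GRN, the progranulin gene (0.68 ± 0.10), and the sorting receptor SORT1 (0.56 ± 0.10). With DL1 3 fell and 3 rose in control cells, near the shares over all genes (12.3% and 14.0%), and 9 fell and 3 rose in irradiated cells (17.0% and 24.4% of all genes). GRN fell in both (-0.72 ± 0.10 and -0.90 ± 0.10), as did SORT1 (-0.57 ± 0.10 in irradiated cells). GNPTAB, which makes the mannose 6-phosphate tag, fell in control cells (-0.24 ± 0.038). GRN was also the 1 gene of this list that rose after irradiation with DL1 (0.50 ± 0.10). None of the genes of these lists passed in freshly sorted cells, nor did any pass the test of a different change with DL1.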

How the data were processed

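The authors deposited 2 tables of FPKM, 1 holding the cultured libraries and 1 the freshly sorted ones. Per the submitters' processing notes, TopHat 1.4.1, Cufflinks 1.3.0 and Cuffdiff (no version) were used, and the human build hg19 is named although the samples are mouse. The build used, the annotation and any scaling are not given in the sources used here. The tables were normalized separately, so nothing was tested across them.

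Each table has 25629 rows, and where rows shared a name the one with the higher mean was kept, leaving 25601. Columns were mapped by title, 0 were left out, and the column IR1DL1 was taken as irradiated replicate 1 with DL1. A gene was tested where its mean FPKM over a table reached 1, with limma 3.58.1 (R 4.3.3, trended variance) applied to log2(FPKM + 1) and the 4 culture groups in 1 fit, and p-values were adjusted by Benjamini-Hochberg over all genes (threshold 0.05). The script was tested on simulated data.

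The members, the gene lists and the tests were chosen with earlier results of these data known. Values per library are given for up to 3 members of smallest p per role among those that passed, for the 4 of smallest p in freshly sorted cells, for TCFEB and for members against the majority. CTSS in freshly sorted cells, CTSZ, LGMN and, among the pathway genes, MITF were added after their values were seen. Of each pathway list the 2 genes of smallest p are named, except where a gene is not reported here. Alternatives were other pseudocounts, filters, scaling, limma without the trend, a replicate block, the 2 groups alone and each library left out. The labels do not say that equal replicate numbers share a mouse. All values reported are from fits without a block. Deviations from the group means correlated over 0.1 in all 3 same-numbered pairs of irradiated cultures without and with DL1 (r = 0.235, 0.145 and 0.355). Of the 36 differently numbered pairs of cultured libraries, 8 also passed 0.1, with r up to 0.331. In the comparison of irradiated cultures without and with DL1 the replicate block changed no call. The interaction uses the same libraries, and with the block both its calls were lost. In the other comparisons not every pair passed 0.1.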

Additional observations from a re-analysis of the deposited data

Results flagged for a closer look

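The changes of 2 lysosomal genes after irradiation differed between cultures with and without DL1 by the interaction test in limma. For CD63, the tetraspanin, the change with DL1 minus that without was -0.81 (adjusted p = 0.0142): it rose by 1.296 without and by 0.48 with DL1. For SGSH, the heparan sulfate sulfamidase, it was -0.58 (adjusted p = 0.0431): it rose by 0.66 without DL1, and with DL1 its change was 0.076 and did not pass. The CD63 call was lost in some of the other fits and the SGSH call in most of them, as given beside the comparison.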

How the results depend on the processing

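No call on a lysosomal gene changed direction in any of the fits. The median over all genes stayed close to 0 and changed sign in some: under median-ratio scaling it was 0.011 after irradiation and -0.00071 with DL1 in control cells, and in freshly sorted cells it was -0.0048 without irradiated replicate 2. After irradiation without DL1 the members that rose numbered 25 with the 2 groups alone and 27 to 37 without 1 library, with 25 of the 33 calls passing in every fit that tested them (SGSH is not tested with a mean FPKM of at least 5). With DL1 in control cells 22 to 27 fell, and in irradiated cells 35 or 36, in all fits. Other counts moved. After irradiation with DL1 the members that rose numbered 1 with no filter, 18 with the 2 groups alone and 1 to 10 without 1 library, against 3 as reported. GM2A, the 1 member that rose with DL1, gave 0 to 1 without 1 library in control and 0 to 1 in irradiated cells, where it also gave 0 with no filter, under median-ratio scaling and with the 2 groups alone. For the test of a different change with DL1 the 2 calls became 0 with no filter, 1 with a mean FPKM of at least 5 (SGSH is then not tested), 1 under median-ratio scaling, 0 with the replicate block and 0 to 4 without 1 library. Where no filter or fewer groups entered, the number of genes or libraries in the fit changed; for the rest the cause was not tested. Replicate numbers were not taken as pairs in the fits reported: over all 18 same-numbered pairs of cultured libraries r ran from -0.168 to 0.355 (6 over 0.1), and over the freshly sorted ones from 0.057 to 0.211. With the replicate block 33 members rose after irradiation (CTSH lost, adjusted p = 0.0518, and GM2A gained, 0.0454) and 3 with DL1, and 27 and 36 fell with DL1 in control and irradiated cells. Beside these and the 2 interaction calls, the block changed no call. Relative depth limits low genes most in irradiated replicate 2 with DL1.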

Other observations

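Cystatins, the cytosolic and secreted inhibitors of cysteine cathepsins, did not move as 1 block. CSTB, which encodes the cytosolic inhibitor of several cathepsins, rose by 0.95 ± 0.10 after irradiation in culture (adjusted p = 0.000125 in limma) and by 0.59 ± 0.10 with DL1 present (adjusted p = 0.00780). It fell with DL1, with changes of -0.74 ± 0.10 in control (adjusted p = 0.000118) and -1.10 ± 0.10 in irradiated cells (adjusted p = 4.10e-06). CST7, expressed in myeloid and cytotoxic cells, rose by 0.59 ± 0.077 after irradiation and by 0.45 ± 0.077 in cultures with DL1. In both kinds of culture STFA1 rose with DL1 (1.09 ± 0.11 in irradiated cells), whereas STFA3 fell (-1.13 ± 0.18 in control cells). STFA1 and STFA3 belong to a cluster of near-identical genes, so that reads may have been split between them and their values are uncertain. Of the 6 cystatin genes tested 3 rose after irradiation (13.8% of all genes). With DL1 2 rose and 2 fell in control cells (14.0% and 12.3% of all genes), and 2 rose and 3 fell in irradiated cells (24.4% and 17.0%).

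Genes for autophagy, whose cargo ends in lysosomes, were mixed. Of 23 tested, 11 rose after irradiation in culture and 0 fell (13.8% and 15.9% of all genes), with a median of 0.19 against -0.026 over all genes. ATG12, part of the conjugate that helps lipidate LC3, rose by 0.40 ± 0.051 after irradiation and by 0.34 ± 0.051 with DL1, while its changes with DL1 were -0.33 ± 0.051 in control and -0.38 ± 0.051 in irradiated cells, both passing. MAP1LC3B, which encodes LC3B, rose by 0.36 ± 0.048. ATG7, the activating enzyme of both conjugation systems, rose after irradiation without DL1 and, by 0.28 ± 0.066, with it. ATG7 fell with DL1 in control cells and, by 0.47 ± 0.066, in irradiated cells. The autophagy receptor OPTN rose with DL1 in control (0.33 ± 0.067) and in irradiated cells (0.36). In control cells 7 of the 23 fell and 4 rose with DL1 (12.3% and 14.0% of all genes). In irradiated cells 10 fell and 3 rose with it (17.0% and 24.4% of all genes).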
